A study of Mus musculus with 12 samples.

Results

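Chemokines and their receptors were examined as a gene family in tumour-associated macrophages (TAMs) of a mouse glioma that had or had not taken up a nanoparticle. Members were all genes of the count table whose symbol begins with Ccl, Ccr, Cxcl, Cxcr, Cx3cl, Cx3cr, Xcl, Xcr or Ackr and a number, which gave 70 of 54532 genes, 47 of them ligand genes (41 symbols, since several genes share a symbol) and 23 receptor genes. All 12 libraries came from mice with the genotype label Ntv-a_Ink4a/Arf_KO, whose age is not given in the sources used here. Ntv-a lines carry an avian retrovirus receptor driven by the nestin promoter, and how the tumours were started is likewise not given. Every mouse was injected intravenously with nanoparticles of perfluoro-crown-ether that carried the dye rhodamine (treatment label Rhodamine_PFCE_NP), so no library comes from an untreated animal. At 24 hours CD45+ CD11b+ Ly6C- cells were sorted into rhodamine-positive (label Rhod_Uptaking) and rhodamine-negative (Rhod_Negative) fractions of more than 2000 cells, 1 of each from 6 mice, and the sex labels are male for mice 1 to 4 and female for mice 5 and 6. All libraries carry the same batch label.

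Chemokines are small secreted proteins that form gradients and direct the movement of leukocytes. They are named by the spacing of their first cysteines (CC, CXC, CX3C and XC) and bind receptors with a matching prefix, which couple to inhibitory G proteins, while the atypical receptors (Ackr) bind and remove chemokines without that coupling. In brain tumours, chemokines that bind CCR2 draw monocytes from the blood, CX3CR1 marks microglia, and CCR7 guides dendritic cells to lymph nodes.

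The libraries held 13073189 to 17379314 counts. Macrophage genes were abundant in all of them, with 31918 to 74086 counts of Csf1r and 12041 to 38291 of Cd68, and Ly6g, a neutrophil marker, had at most 1 count in any library. Xist had 0 to 6 counts in libraries of male and 2571 to 5067 in those of female mice, which matches the labels. In sorted bulk samples, fewer cells of a type and less RNA per cell cannot be told apart, which holds for every difference below. The labels name separate mice, so the spread between pairs is a spread between animals.

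Of the 70 members, 38 had enough counts to be tested (23 ligands and 15 receptors), 18 had a few counts and 14 had none. Levels between genes were compared as library-size-scaled counts (CPM) per kilobase of exon. On that scale the highest ligand transcripts of rhodamine-negative sorts were Ccl4 (2409 ± 785), Ccl12 (1301 ± 799.6) and Ccl3 (856 ± 278; SD, n = 6), and the highest receptor transcript was Cx3cr1 (376 ± 99.1). In rhodamine-positive sorts the same 4 genes stood at 1989.5 ± 550.3, 1590.3 ± 468, 725 ± 235 and 419 ± 51.1 CPM per kilobase. Summed over all ligands, the level was 3703 to 6612 CPM (median 4197) in rhodamine-negative and 3410.1 to 4971 CPM (median 4296) in rhodamine-positive libraries, with overlap. The summed receptor level was 2403 to 3019 and 1962 to 2646 CPM. Cx3cr1 made up 78.5 to 83.8% of receptor counts in rhodamine-positive libraries. In rhodamine-negative libraries its share was 35.5% in mouse 5 and 63.5 to 77.0% in the other 5 mice.

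Rhodamine-positive sorts had lower transcript levels of 8 of 15 receptors tested, of both CCR4 ligands and of part of the CXCR2 and CXCR3 ligands. The genes listed as CCR2 ligands were the only role group with members that rose. Of the 23 ligands tested, 2 rose and 8 fell, and of the 15 receptors tested, none rose and 8 fell (edgeR's quasi-likelihood test, paired by mouse, with p adjusted over 15014 genes by Benjamini-Hochberg and a threshold of 0.05). At an unadjusted p under 0.05 the receptor counts were 0 higher and 9 lower, and DESeq2 also called 0 higher. Over all genes tested, 13% rose and 13.2% fell. The share that fell was thus 34.8% of ligands and 53.3% of receptors, and the share that rose was 8.70% of ligands. The median log2 fold change was -0.27 for ligands and -1.03 for receptors, beside -0.02 for all genes. Decreases of at least 2-fold were found in 6 ligands and 8 receptors, against 5.47% of all genes, and an increase of that size in 1 ligand (Ccl8), against 0.626%. Among the called members 6 ligands and 8 receptors were lower in all 6 mice (10.8% of all genes) and Ccl8 was higher in all 6 (10.9%). The rhodamine-positive libraries lay wholly below the rhodamine-negative ones for 2 ligands (Ccl17 and Ccl22) and 4 receptors (Ccr1, Ccr2, Ccr6 and Ccr9), a pattern seen in 4.67% of all genes, and no member lay wholly above (4.14% of all genes). Cxcl11, Cx3cl1, Ccr6, Ccr9, Cxcr2 and Xcr1 had 16 or more counts in every rhodamine-negative library but fell below 10 in a rhodamine-positive one. The count filter asks for enough counts in only as many libraries as a sort holds. Such genes can pass it through the rhodamine-negative sort alone, which favours a call of lower. The shares and counts above include them and are no independent support.

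**Figure D1:**
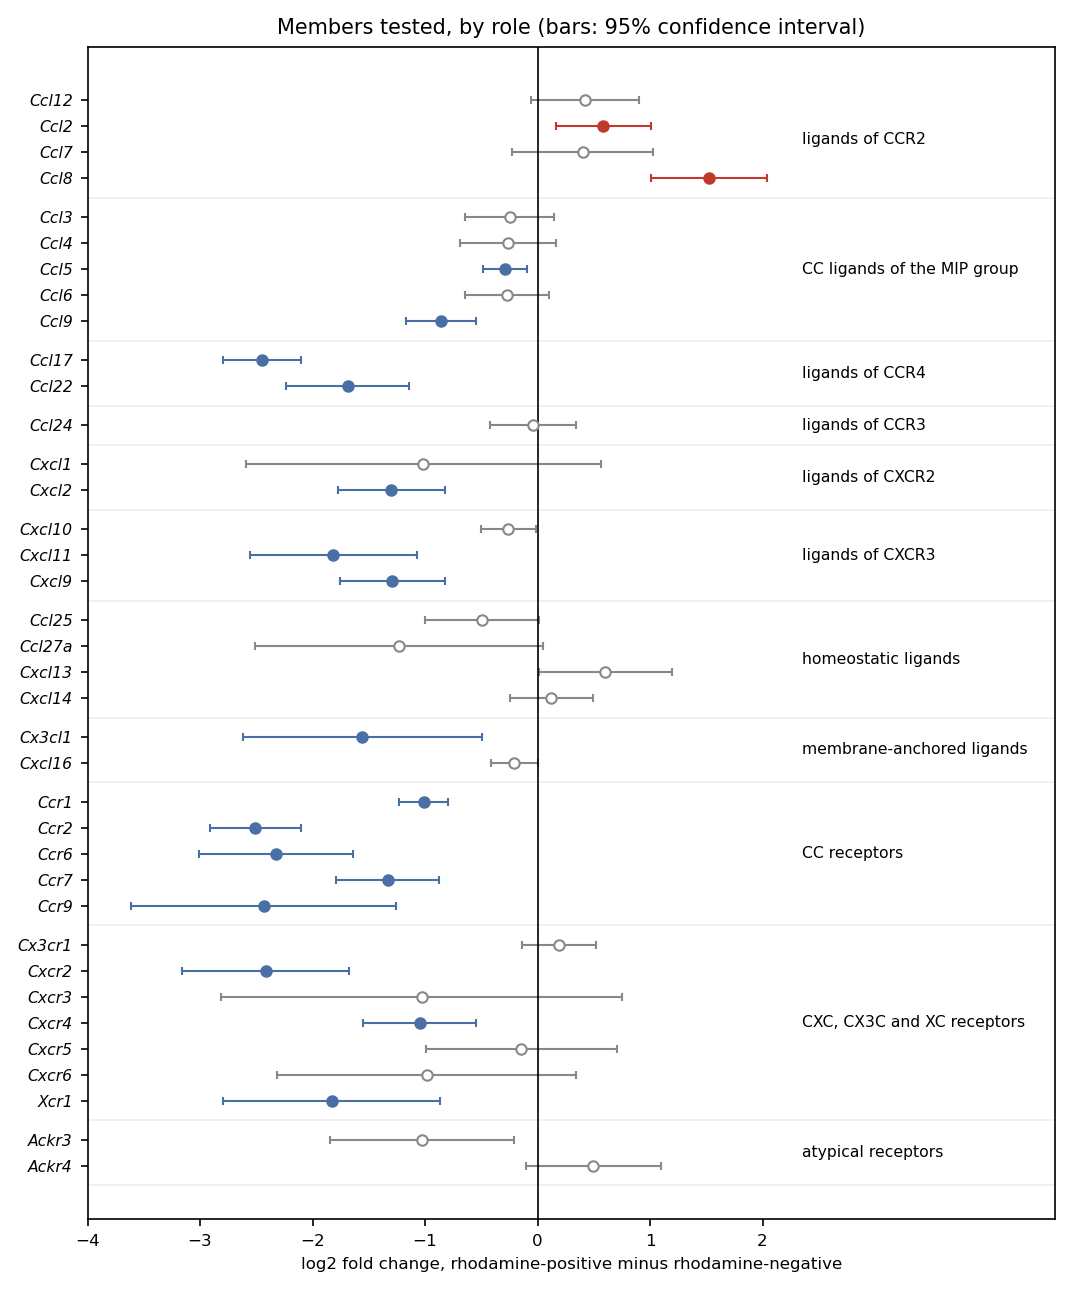
Log2 fold change (rhodamine-positive minus rhodamine-negative, 6 mice) of members tested, grouped by role. Points are estimates, bars 95% confidence intervals, red marks members that rose, blue those that fell and open grey those that did not pass. Red points occur at Ccl2 and Ccl8 alone, and 8 receptors are blue.

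The group listed as CCR2 ligands (Ccl2, Ccl7, Ccl8 and Ccl12) was the one with members that rose. Receptor binding was not measured here, so the place of mouse Ccl8 in this group rests on the list alone. Ccl8, also called MCP-2, ran from 8.10 to 65.3 CPM (median 17.4) in rhodamine-negative and 27.3 to 133 CPM (median 53.9) in rhodamine-positive libraries. It was higher in the rhodamine-positive sort of 6 of 6 mice, although the ranges of the groups overlapped. Mouse 3 was the highest in both sorts (65.3 and 133 CPM). The gene (ENSMUSG00000009185, chr11:82115185-82116799, mm10, plus strand) rose 2.88-fold, a log2 fold change of 1.53 ± 0.24 (SE; edgeR adjusted p = 0.000857), and was not called once the pairing by mouse was dropped (adjusted p = 0.07). Ccl2, the prototype monocyte chemoattractant MCP-1, ran from 112 to 355 CPM (median 157) in rhodamine-negative and 143 to 449.5 CPM (median 267) in rhodamine-positive libraries. It was higher in 5 of 6 mice, most of all in mouse 5 (151 to 449.5 CPM), and lower in mouse 4 (355 to 306 CPM). Ccl2 rose by 0.59 ± 0.19 (SE; edgeR adjusted p = 0.0421), a call that lay close to the threshold. It was lost without the block, with DESeq2 and without mouse 2, 3, 5 or 6 (adjusted p = 0.169, 0.0767, 0.075, 0.0718, 0.0822 and 0.134), and the value was 0.19 in male mice alone (adjusted p = 0.317). Leaving out mouse 5 also moved it to 0.40, and the scaling to library size alone (adjusted p = 0.116) and the deposited log2 values (0.0509) did not pass either.

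Ccl12 and Ccl7, the others in the group listed as CCR2 ligands, did not pass. Ccl12, which mice have beside Ccl2 and which is also called MCP-5, ran from 345 to 1447 CPM (median 526) in rhodamine-negative and 434 to 1079.6 CPM (median 921) in rhodamine-positive libraries, with mice 1 and 4 lower and the other 4 higher in the rhodamine-positive sort. Its log2 difference was 0.42 with a 95% confidence interval of -0.06 to 0.90 (edgeR adjusted p = 0.178). Ccl7, or MCP-3, ran from 36.5 to 56.9 CPM (median 39.9) in rhodamine-negative and 14.5 to 120.1 CPM (median 61.1) in rhodamine-positive libraries, with a difference of 0.40 and an interval of -0.23 to 1.03. Mouse 2 had the lowest difference, going from 36.5 to 14.5 CPM, and without it the difference was 0.71 (adjusted p = 0.0335). In male mice alone the differences of Ccl12 and Ccl7 were -0.01 and -0.11.

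The CC ligands of the macrophage inflammatory protein (MIP) group (Ccl3, Ccl4, Ccl5, Ccl6 and Ccl9), which attract monocytes, macrophages and T cells, included the most abundant chemokines, and 2 of 5 fell. Ccl9, a ligand of CCR1 made by macrophages, ran from 43.4 to 176 CPM (median 109) in rhodamine-negative and 28.3 to 75.7 CPM (median 59.0) in rhodamine-positive libraries. Every mouse was lower in the rhodamine-positive sort, and the decrease was 1.81-fold (log2 -0.86 ± 0.14, SE; edgeR adjusted p = 0.00128). Ccl5, or RANTES, ran from 98.1 to 197 CPM (median 143) in rhodamine-negative and 73.0 to 167 CPM (median 125) in rhodamine-positive libraries and fell by 0.29 ± 0.09 (edgeR adjusted p = 0.032), a small change that was lost without the block (adjusted p = 0.343) and without mouse 1, 2, 4, 5 or 6 (0.089, 0.0792, 0.0657, 0.061 and 0.0698). Markers of natural killer cells, which also make Ccl5, had summed levels of 42.1 to 106 CPM in rhodamine-negative and 2.30 to 10.9 CPM in rhodamine-positive libraries. Klrd1, at 49.5 and 6.05 CPM on average, made up most of the sum. It fell, as did Gzmb, the only other marker tested. The defining Ncr1 had 0 to 11 counts and Eomes 0 to 2. Gzmb was highest in the rhodamine-negative library of mouse 3 (28.6 CPM), as was the basophil marker Mcpt8 (49.8 CPM). The part of natural killer cells in the change of Ccl5 was not tested.

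Ccl3 and Ccl4, the macrophage inflammatory proteins 1 alpha and 1 beta, did not pass and had 3 mice on each side. Ccl4 ran from 1038 to 2447 CPM (median 1538) in rhodamine-negative and 844 to 1796 CPM (median 1389) in rhodamine-positive libraries, a log2 difference of -0.26 (interval -0.69 to 0.16). Ccl3 ran from 427 to 1014 CPM (median 611) in rhodamine-negative and 339.5 to 814 CPM (median 578) in rhodamine-positive libraries, a difference of -0.25 (interval -0.64 to 0.15). Both were lower in mice 1, 3 and 4 and higher in mice 2, 5 and 6. Ccl6, a further macrophage CC chemokine of the same gene cluster, was lower in 5 of 6 mice, with a difference of -0.27 (interval -0.65 to 0.10; edgeR adjusted p = 0.262).

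The CCR4 ligands Ccl17 and Ccl22, which dendritic cells and alternatively activated macrophages make and which attract regulatory and helper T cells, both fell, Ccl17 more than any other ligand tested. Ccl17 (chr8:94810453-94812036) ran from 34.5 to 118 CPM (median 55.9) in rhodamine-negative and 5.12 to 22.2 CPM (median 10.8) in rhodamine-positive libraries. Even the highest rhodamine-positive library (mouse 5, 22.2 CPM) lay below the lowest rhodamine-negative one (mouse 2, 34.5 CPM), and the fall was 5.45-fold (-2.45 ± 0.16, SE; edgeR adjusted p = 1.95e-06). Ccl22 (chr8:94745590-94751699) ran from 75.2 to 217 CPM (median 113) in rhodamine-negative and 14.5 to 62.8 CPM (median 34.3) in rhodamine-positive libraries, with no overlap. Its fall was 3.22-fold (-1.69 ± 0.25, SE) and least in mouse 4, which went from 80.6 to 62.8 CPM, while mouse 2 went from 116 to 14.5 CPM. Conventional dendritic cell markers fell in the same sorts, as given with the receptors below. Ccl24, an eosinophil-attracting CCR3 ligand that alternatively activated macrophages also make, differed by -0.04 (interval -0.42 to 0.34) but varied widely between mice, from 2.57 CPM in mouse 4 to 126 CPM in mouse 5 in the rhodamine-negative sort.

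Neutrophil-attracting CXCR2 ligands were scarce apart from Cxcl2. Cxcl2, or MIP-2, ran from 15.4 to 91.2 CPM (median 42.2) in rhodamine-negative and 7.86 to 35.8 CPM (median 17.3) in rhodamine-positive libraries. All 6 mice were lower in the rhodamine-positive sort, mouse 4 by little (42.0 to 35.8 CPM), and the decrease was 2.46-fold (-1.30 ± 0.22, SE; edgeR adjusted p = 0.00136). Cxcl1, its near relative, had 0 to 154 counts and did not pass (-1.01 ± 0.72). In mouse 4 it was higher in the rhodamine-positive sort (11.3 against 2.70 CPM), and without mouse 4 the difference was -1.70 (adjusted p = 0.0788). Cxcl3 had 55 counts over the 6 rhodamine-negative and 11 over the 6 rhodamine-positive libraries and was too low to test. Immediate early genes (Fos, Fosb, Jun, Junb, Egr1, Ier2, Atf3 and Dusp1, chosen after values were seen), which respond to cell handling as well as to stimulation, had summed levels of 10680 to 15819 CPM in rhodamine-negative and 6798 to 10297 CPM in rhodamine-positive libraries, and 6 of 8 fell. The 2 ranges do not overlap. Their part in the changes of Cxcl2 and other inducible ligands was not tested.

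Of the 3 interferon-induced CXCR3 ligands, which attract activated T cells and natural killer cells, 2 fell. Cxcl9 ran from 4.24 to 45.5 CPM (median 6.84) in rhodamine-negative and 1.06 to 29.1 CPM (median 2.71) in rhodamine-positive libraries, and was lower in 6 of 6 mice. Mouse 6 stood far above the rest in both sorts (45.5 and 29.1 CPM). The group ranges overlapped while every pair fell, by 1.29 ± 0.21 on the log2 scale (SE; edgeR adjusted p = 0.00133). With the pairing dropped the value was -0.92 and did not pass (adjusted p = 0.455). Cxcl11, which the annotation used here types as a polymorphic pseudogene, ran from 1.56 to 7.63 CPM (median 3.12) in rhodamine-negative and 0.187 to 2.86 CPM (median 0.726) in rhodamine-positive libraries and fell 3.52-fold (edgeR adjusted p = 0.00265, and 0.0576 without the block). A pseudogene on the other strand covers 41.7% of its exon bases, so its counts are uncertain where strand was not used. Cxcl10, the most abundant of the group, ran from 101.2 to 254 CPM (median 181) in rhodamine-negative and 94.3 to 220.1 CPM (median 125) in rhodamine-positive libraries and did not pass (-0.26, interval -0.51 to -0.01; adjusted p = 0.115). It passed as lower with library size alone (adjusted p = 0.017), where the median of all genes moved to -0.18.

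The 2 ligands that are made as membrane-anchored proteins differed from each other in level. Cxcl16, the ligand of CXCR6 that also binds oxidised lipoprotein, ran from 408 to 544 CPM (median 518) in rhodamine-negative and 351 to 544 CPM (median 419) in rhodamine-positive libraries and did not pass (-0.21, interval -0.41 to 0.00), though it passed as lower with library size alone (adjusted p = 0.0153). Exons of Zmynd15 on the other strand cover 18.3% of its exon bases. Cx3cl1, or fractalkine, which neurons make in the brain, ran from 4.76 to 17.6 CPM (median 7.15) in rhodamine-negative and 0.437 to 5.23 CPM (median 3.91) in rhodamine-positive libraries. It fell 2.94-fold (-1.56 ± 0.49, SE; edgeR adjusted p = 0.035) with mouse 4 the exception, and did not pass in male mice alone (adjusted p = 0.232) or without mouse 1, 2, 5 or 6 (0.0508, 0.0517, 0.0859 and 0.101).

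**Figure D2:**
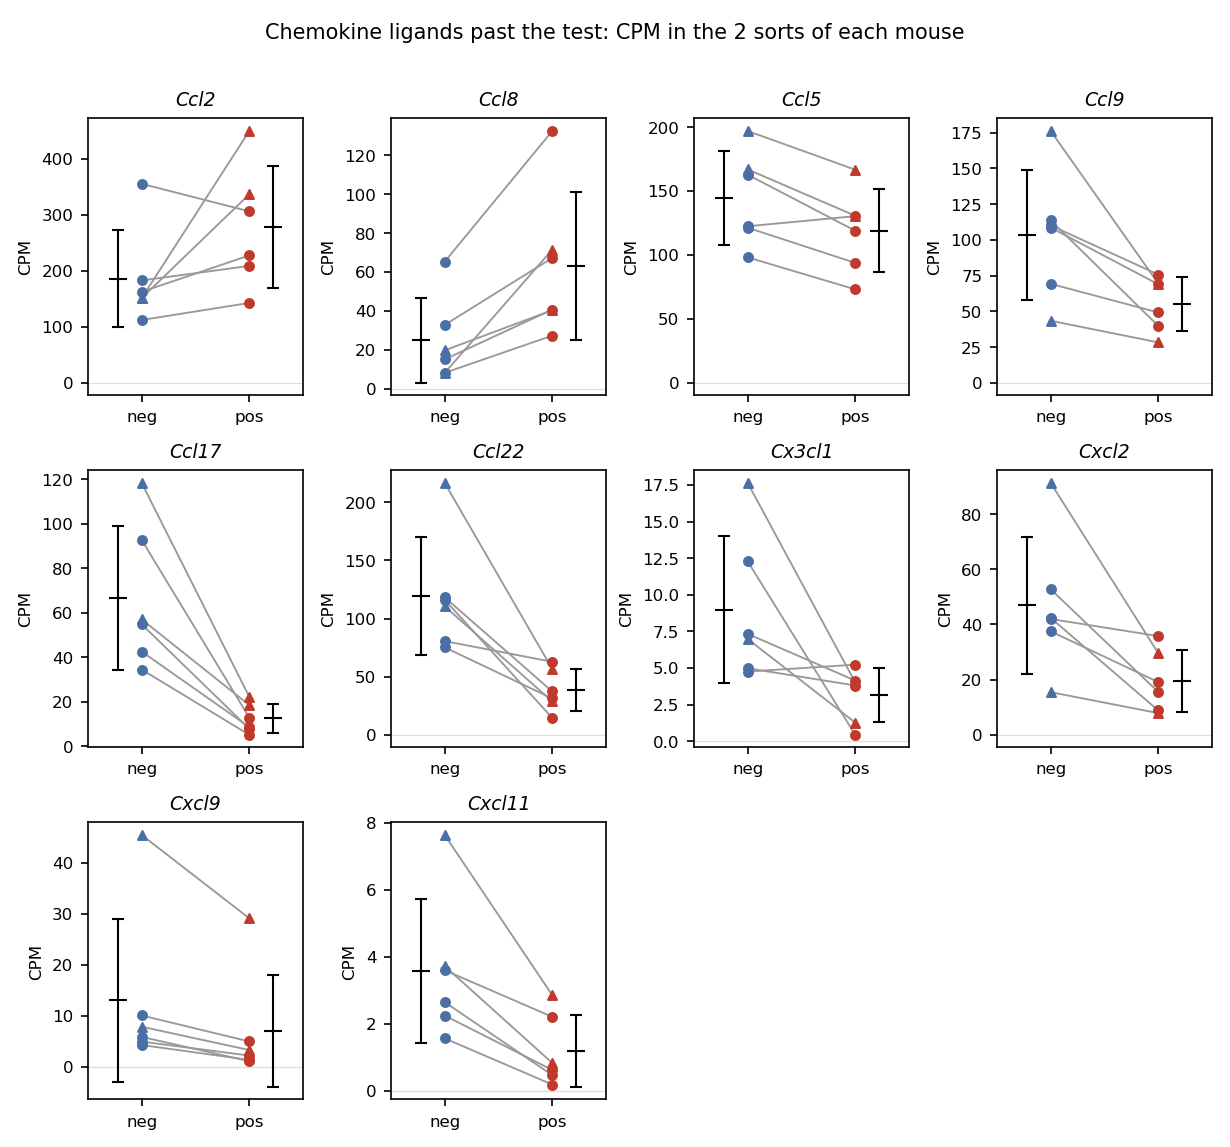
CPM of the 10 ligands that passed the test in the rhodamine-negative (neg, blue) and rhodamine-positive (pos, red) sort of each mouse, joined by a line, with linear axes of their own. Circles are male and triangles female mice, and the black bars give the mean ± SD of 6 libraries. Ccl8 rises in all 6 mice, and Ccl17 and Ccl22 fall in all 6 with no overlap of the groups.

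Homeostatic ligands, which place lymphocytes in lymphoid tissue at rest, were low, and none of the 4 tested passed in edgeR (1 at an unadjusted p under 0.05) or in DESeq2. Cxcl13, the B cell attractant, ran from 0.903 to 10.02 CPM (median 5.58) in rhodamine-negative and 1.56 to 19.0 CPM (median 7.06) in rhodamine-positive libraries, higher in 5 of 6 mice, with a difference of 0.60 (interval 0.01 to 1.20; edgeR adjusted p = 0.125), and it passed without mouse 1 (0.85, adjusted p = 0.0371). Cxcl14, Ccl25 and Ccl27a differed by 0.12, -0.49 and -1.23 with intervals of -0.25 to 0.49, -0.996 to 0.01 and -2.51 to 0.05. Ccl27a passed as lower with limma on the deposited log2 values (-1.49, adjusted p = 0.049). Cxcl12, the ligand of CXCR4, had 0 to 26 counts. Both Ccl19 genes, all 6 Ccl21 genes, Ccl27b and 2 further Ccl27a copies had no count in any library, as had Ccl26, Cxcl15 and the pseudogene Ccl19-ps3. No count allows up to 3 counts, or 0.0169 CPM, over all libraries, for counting error only. Ccl19, Ccl21 and Ccl27 genes exist in near-identical copies, and how reads that match several copies were counted is not given in the sources used here, so these zeros are uncertain. Ccl1, Ccl20 and Cxcl5 had 1 count each, and Xcl1 7 counts, all in rhodamine-negative libraries. Over rhodamine-negative and rhodamine-positive libraries, the eosinophil attractant Ccl11 had 38 and 9 counts, Cxcl17 13 and 9, Ccl28 6 and 1 and the pseudogene Ccl19-ps1 0 and 1.

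Bases upstream of the transcription start are shown for the CCR4 ligands, which fell together and lie close to each other on chromosome 8, for Cxcl2, which also fell, and for Ccl8, which rose most. Sequences are from RefSeq (GRCm38.p6), plus strand, 5′ to 3′, cut where the first transcript of either RefSeq or GENCODE begins, and capitals mark motif matches. They cover chr8:94810203-94810452, chr8:94745434-94745589, chr5:90903649-90903870 and chr11:82114935-82115184.
Ccl17: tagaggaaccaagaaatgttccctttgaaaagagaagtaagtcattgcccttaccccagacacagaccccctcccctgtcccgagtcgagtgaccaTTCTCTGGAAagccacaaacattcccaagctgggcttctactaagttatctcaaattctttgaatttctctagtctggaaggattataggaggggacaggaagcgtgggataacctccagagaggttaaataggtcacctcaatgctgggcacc
Ccl22: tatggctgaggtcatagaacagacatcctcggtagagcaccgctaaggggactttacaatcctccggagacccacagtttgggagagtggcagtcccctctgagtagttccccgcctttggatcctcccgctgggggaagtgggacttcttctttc
Cxcl2: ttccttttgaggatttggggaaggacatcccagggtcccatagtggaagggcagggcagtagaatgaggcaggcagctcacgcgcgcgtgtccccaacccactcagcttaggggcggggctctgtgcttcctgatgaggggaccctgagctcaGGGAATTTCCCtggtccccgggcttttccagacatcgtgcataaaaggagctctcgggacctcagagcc
Ccl8: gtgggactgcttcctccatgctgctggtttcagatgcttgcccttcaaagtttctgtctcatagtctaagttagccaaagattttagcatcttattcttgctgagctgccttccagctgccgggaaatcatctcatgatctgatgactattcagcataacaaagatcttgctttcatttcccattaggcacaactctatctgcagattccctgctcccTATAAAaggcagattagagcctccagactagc
Capitals mark a match to the STAT6 motif (TTCNNNNGAA) in Ccl17, overlapping matches to the NF-kB consensus on both strands in Cxcl2 and a TATA box (TATAAA) in Ccl8. No match to these motifs, to the AP-1 motif (TGANTCA) or to the interferon response motif (GAAANNGAAA) lay in the stretch shown for Ccl22. Both strands were searched over the 250 bases before each RefSeq start. The STAT6 motif occurred in 5.85% of the 32851 such windows searched, which do not cover every chromosome. The NF-kB consensus occurred in 7.25%, the TATA box in 12.4%, the AP-1 motif in 6.75% and the interferon motif in 2.98%. These shares are per window, whereas members below are counted per gene with a match in any window. Windows were found for 28 of the 38 members tested. The NF-kB consensus was in those of 4 of 13 members that fell (Ccl9, Ccr1, Ccr6 and Cxcl2), of 2 of 14 that did not pass (Cxcl1 and Cxcl10) and not in that of Ccl8. The TATA box was in those of 5 of 13 that fell, of 5 of 14 that did not pass and of Ccl8. Of the same 13 and 14, the STAT6 motif was in 1 and 0, the AP-1 motif in 1 and 2 and the interferon motif in 0 and 2. A match in these letters does not show that a factor binds there.

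For Ccl2, Ccl12, Ccl3, Ccl4 and Ccl7 the mice differed in the direction or size of the difference between sorts. In the 2 female mice Ccl2 was 1.15 to 1.57 higher in the rhodamine-positive sort on the log2 CPM scale, and in the 4 male mice the difference was -0.21 to 0.48. For Ccl4 the difference was 0.39 to 0.51 in females and -0.95 to 0.08 in males, and for Ccl12 1.03 to 1.52 and -0.49 to 0.42. In male mice alone Ccl3 and Ccl4 passed as lower (-0.59 and -0.63, edgeR adjusted p = 0.0213 and 0.0209). The difference between the sexes was tested as an interaction in the same model. It gave unadjusted p = 0.000261 for Ccl2, 0.000712 for Ccl12, 0.00211 for Ccl3, 0.00224 for Ccl4 and 0.00612 for Ccl7, with estimates of 1.16, 1.27, 1.00, 1.08 and 1.46 (female minus male). Unadjusted p-values under 0.05 were also found for Ccl24 (0.00627), Ccr7 (0.0154), Ccl17 (0.0296) and Cx3cr1 (0.0454). Ccl24 and Ccr7 went the other way (-0.87 and -0.97), and Ccl17 and Cx3cr1 had estimates of 0.65 and 0.61. None of the 9 passed after edgeR's adjustment over all genes (lowest adjusted p = 0.562), and 0 of 15014 genes did, or 0%. At an unadjusted p under 0.05 there were 9 of 38 members and 1160 of all genes (7.73%). With 2 female mice, sex and any other feature those mice share cannot be told apart.

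**Figure D3:**
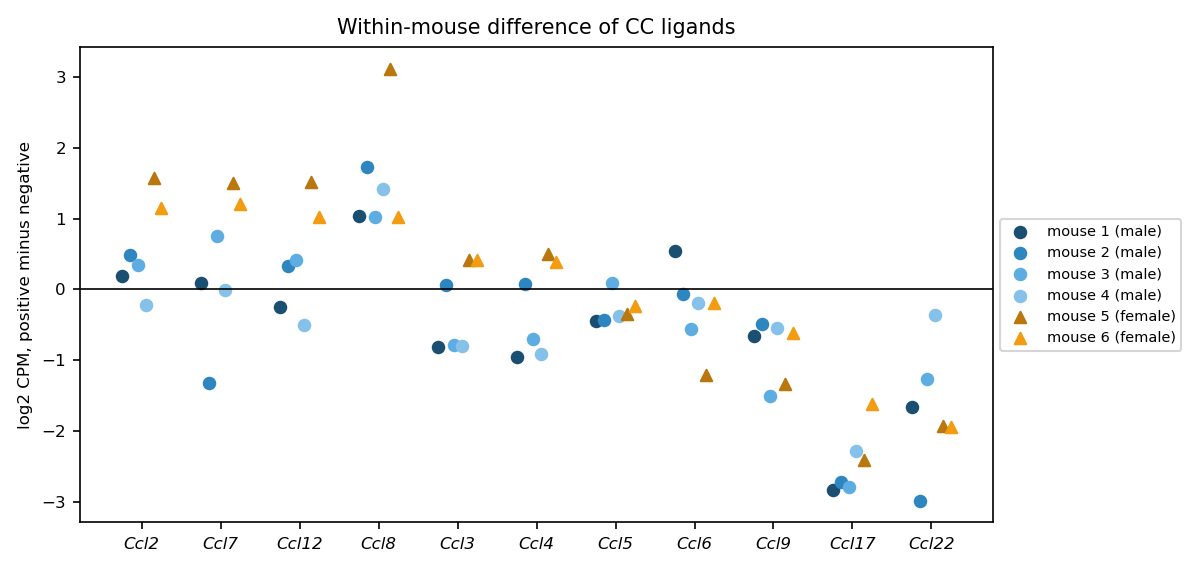
Log2 CPM of the rhodamine-positive minus the rhodamine-negative sort of each mouse for 11 CC ligands. Circles in blues are male mice 1 to 4 and triangles in orange female mice 5 and 6. Ccl8 lies above 0 and Ccl9, Ccl17 and Ccl22 below 0 in all 6 mice, whereas for Ccl2, Ccl7, Ccl12, Ccl3 and Ccl4 both triangles lie above the highest circle.

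Receptors fell or did not pass, and the decreases were large. Ccr2, the receptor through which monocytes enter tissue, ran from 89.9 to 331 CPM (median 131) in rhodamine-negative and 9.82 to 37.3 CPM (median 30.02) in rhodamine-positive libraries. No rhodamine-positive library reached the lowest rhodamine-negative one, and the fall was 5.69-fold (-2.51 ± 0.19, SE; edgeR adjusted p = 5.44e-06). Ccr1, a receptor of monocytes and macrophages for Ccl3, Ccl5, Ccl6 and Ccl9, ran from 169 to 333 CPM (median 222) in rhodamine-negative and 86.8 to 159 CPM (median 112) in rhodamine-positive libraries. Its groups did not overlap either, and it fell 2.02-fold (-1.01 ± 0.10).

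Ccr7, which guides dendritic cells towards lymph nodes, ran from 159.7 to 821 CPM (median 278) in rhodamine-negative and 86.8 to 196 CPM (median 116) in rhodamine-positive libraries. It fell 2.52-fold (-1.33 ± 0.21, SE; edgeR adjusted p = 0.00095). The fall was large in mouse 5 (821 to 196 CPM) and nearly absent in mouse 4 (159.7 to 154 CPM). Markers of migratory dendritic cells (Fscn1, Il4i1, Socs2, Relb, Cacnb3 and Nudt17), chosen with earlier results of these data known, showed 3 of 6 lower. These markers had summed levels of 151 to 517 CPM in rhodamine-negative and 93.2 to 163 CPM in rhodamine-positive libraries. Their sum went from 517 to 158 CPM in mouse 5 and from 151 to 163 CPM in mouse 4, and their part in the change of Ccr7 was not tested. Ccr6, the receptor for Ccl20 on dendritic and B cells, went from 5.05 ± 2.20 to 1.01 ± 0.462 CPM (SD, n = 6), and Ccr9, the receptor for Ccl25 on gut-homing lymphocytes and plasmacytoid dendritic cells, from 3.94 ± 1.08 to 0.858 ± 0.659 CPM (SD, n = 6). Both fell without overlap of the groups, 5.01-fold and 5.41-fold, from low counts (3 to 138 and 0 to 90 per library). A transcript on the other strand covers 18.8% of the exon bases of Ccr9, so part of its counts could be that gene's.

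Xcr1, the receptor that marks cross-presenting dendritic cells, ran from 1.12 to 4.71 CPM (median 2.503) in rhodamine-negative and 0.147 to 1.83 CPM (median 0.582) in rhodamine-positive libraries and fell 3.55-fold (-1.83 ± 0.44; edgeR adjusted p = 0.0106, and 0.0761 in male mice alone). All 8 conventional dendritic cell markers fell in the same sorts (Flt3, Zbtb46, Clec9a, Batf3, Cd209a, Itgae, Clec10a and Kmo; median log2 fold change -2.67). They were chosen with earlier results of these data known, so this count is no independent support. Their summed level was 353 to 1013 CPM in rhodamine-negative and 71.3 to 115 CPM in rhodamine-positive libraries. Clec9a, which defines the cross-presenting type, had 0 to 54 counts and was at 0 in the rhodamine-positive library of mouse 3, and the other 7 had counts in every library. The part of these markers in the changes of Xcr1, Ccr2, Ccr6, Ccr7, Ccl17 and Ccl22 was not tested.

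Cxcr2, the neutrophil receptor for Cxcl1 and Cxcl2, ran from 1.22 to 20.2 CPM (median 4.46) in rhodamine-negative and 0.200 to 2.77 CPM (median 1.09) in rhodamine-positive libraries, highest in mouse 5. It fell 5.34-fold (-2.42 ± 0.34; edgeR adjusted p = 0.000492). The neutrophil markers S100a8 and S100a9 had at most 26 and 32 counts in a library, and the neutrophil list summed to 200.5 to 386 CPM in rhodamine-negative and 252 to 417 CPM in rhodamine-positive libraries, carried by Csf3r. Of its 2 tested genes Mmp8 rose (1.52 ± 0.48, 6 to 69 counts; edgeR adjusted p = 0.0363) and Csf3r did not pass. Basophil and mast cell markers fell beside it, 4 of the 4 tested (Mcpt8, Gata2, Cyp11a1 and Hdc), with summed levels of 8.23 to 483 CPM in rhodamine-negative and 0.250 to 24.7 CPM in rhodamine-positive libraries, and their part was not tested. Cxcr4, the receptor for Cxcl12 that holds leukocytes in marrow and tissue, ran from 7.97 to 30.1 CPM (median 12.8) in rhodamine-negative and 5.36 to 10.2 CPM (median 6.46) in rhodamine-positive libraries and fell 2.07-fold (-1.05 ± 0.23). The lymphocyte receptors Cxcr3, Cxcr5 and Cxcr6 had at most 4.90 CPM in any library and did not pass, with intervals of -2.81 to 0.75, -0.99 to 0.70 and -2.31 to 0.34, which are wide. T cell markers summed to 0.963 to 3.33 CPM in rhodamine-negative and 0.714 to 2.25 CPM in rhodamine-positive libraries, with Cd3e at 0 to 6 and Cd3d at 0 to 6 counts.

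Cx3cr1, the fractalkine receptor of microglia, was the most abundant receptor and did not pass. It ran from 964 to 2323 CPM (median 1676) in rhodamine-negative and 1541 to 2165 CPM (median 1885) in rhodamine-positive libraries, with a log2 difference of 0.19 and an interval of -0.14 to 0.52 (edgeR adjusted p = 0.381), which covers changes of less than 1.5-fold. The largest difference was in mouse 5, from 964 to 2094 CPM. Of the atypical receptors, Ackr3, which scavenges Cxcl12, ran from 2.42 to 13.4 CPM (median 8.29) in rhodamine-negative and 2.21 to 5.40 CPM (median 3.72) in rhodamine-positive libraries. It was lower in 5 of 6 mice and just missed the threshold (-1.03 ± 0.38; edgeR adjusted p = 0.0631). It passed with DESeq2 and without mouse 5 (adjusted p = 0.0112 and 0.00349), the mouse whose rhodamine-negative level was lowest. Ackr4, which scavenges Ccl19, Ccl21 and Ccl25, was higher in 5 of 6 mice (0.50, interval -0.10 to 1.09), and passed as higher without mouse 4 (0.77, adjusted p = 0.027). Of the receptors with few counts, Ccr3 had 103 counts over rhodamine-negative and 41 over rhodamine-positive libraries, Ccr10 32 and 6, Ccr1l1 27 and 14, Ccr4 13 and 7, Ccr8 7 and 0, Ackr1 14 and 0, Ackr2 11 and 39 and Cxcr1 3 and 3.

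**Figure D4:**
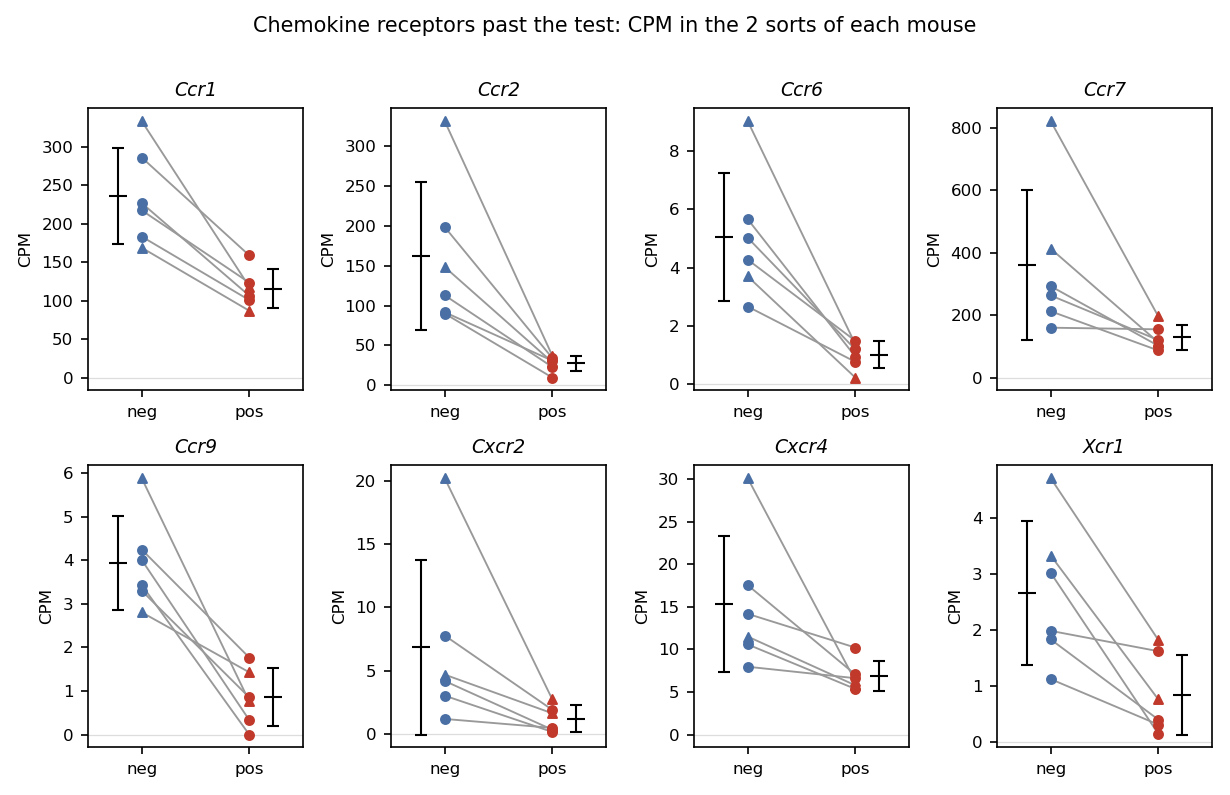
CPM of the 8 receptors that fell, in the rhodamine-negative (neg, blue) and rhodamine-positive (pos, red) sort of each mouse, with linear axes of their own. Circles are male and triangles female mice, and black bars give the mean ± SD of 6 libraries. In 7 of the 8 panels the highest point is the rhodamine-negative sort of mouse 5, and the line of mouse 4 in the Ccr7 panel is nearly flat.

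The rhodamine-negative library of mouse 5 was thus the highest for 7 of the 8 receptors that fell (all but Xcr1) and for 5 of the 8 ligands that fell. Its conventional dendritic cell markers summed to 1013 CPM, the top of the range. The same library also had the highest sum of basophil and mast cell markers (483 CPM). Its sum of macrophage markers was the lowest, at 4703 CPM in a rhodamine-negative range that reached 9117 CPM. The part of these differences in the changes was not tested. Without mouse 5, 9 receptors and 6 ligands fell.

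The values of ligands and of their receptors are set side by side here. The libraries are CD45+ CD11b+ Ly6C- sorts, so levels in other cells of the tumour were not measured. Ccl8 and Ccl2, both listed as CCR2 ligands, rose while Ccr2 fell 5.69-fold. Whether mouse Ccl8 acts through CCR2 was not tested. Ccl17 and Ccl22 were at 66.7 ± 32.3 and 119.5 ± 51.0 CPM (SD, n = 6) in rhodamine-negative sorts, whereas their receptor Ccr4 had at most 10 counts in a library. Ccr7 had 1118 to 12576 counts while its ligands Ccl19 and Ccl21 had no counts, zeros that are uncertain as given above. Cx3cr1 had 14757 to 36147 counts and Cx3cl1 7 to 270. Cxcl2 and Cxcr2 fell together, and so did Ccl9 and Ccr1, while Cxcl16 was abundant and its receptor Cxcr6 had 0 to 31 counts.

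Many members lie in clusters of neighbouring genes, and the direction of the called members differed between clusters. Over all genes tested, 13% rose and 13.2% fell. On chromosome 8, Ccl22, Cx3cl1 and Ccl17 lie within 66.4 kb (chr8:94745590-94812036, mm10), and all 3 fell. On chromosome 11, the cluster of Ccl2, Ccl7, Ccl11, Ccl12, Ccl8 and Ccl1 (chr11:82035571-82305690) had 4 members tested, of which 2 rose and none fell. The 2 were Ccl8 and Ccl2, and the call of Ccl2 was lost in 9 of 15 alternative settings. A second cluster on chromosome 11, with Ccl5, Ccl9, Ccl6, Ccl3 and Ccl4 (chr11:83525778-83664683), had 2 of 5 falling and none rising. The receptor cluster on chromosome 9 (chr9:123678439-124113557) holds Ccr9, Cxcr6, Xcr1, Ccr1, Ccr1l1, Ccr3 and Ccr2. Of the 5 tested among these, 4 fell. On chromosome 5, 1 of 2 tested members of the Cxcl2 cluster and 2 of 3 of the Cxcl9 cluster fell. Members of a cluster are not independent of each other, and a cluster's count has no test.

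**Figure D5:**
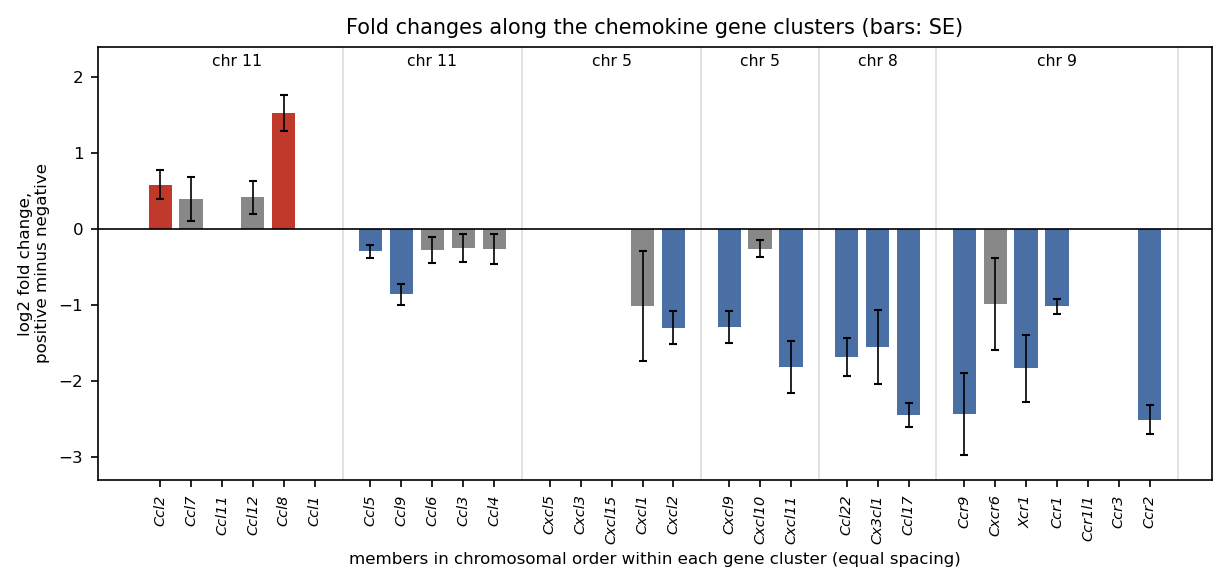
Log2 fold change (rhodamine-positive minus rhodamine-negative) of members in chromosomal order within 6 gene clusters with at least 2 tested members, equally spaced, with SE bars. Red bars rose, blue bars fell, grey bars did not pass, and positions with no bar had too few counts. The first chromosome 11 cluster lies above 0 and the chromosome 8 and 9 clusters lie below 0.

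Genes around the receptors were looked at from lists chosen beside the members, with earlier results of these data known. Of 9 tested relatives that the symbol rule leaves out, 2 rose and 2 fell. Pf4, or Cxcl4, a CXC chemokine of platelets and macrophages, went from 20.7 ± 13.8 to 31.6 ± 10.1 CPM (SD, n = 6) and was higher in 6 of 6 mice (0.76 ± 0.17, SE; edgeR adjusted p = 0.0075). Ccrl2, an atypical receptor that binds chemerin, fell from 278 ± 61.3 to 181 ± 29.4 CPM (SD, n = 6) (-0.61 ± 0.09; adjusted p = 0.000603), while Cmtm3 rose by 0.30 and Cmtm8 fell by 0.38. The other 5 tested, the chemerin receptor Cmklr1 among them, did not pass.

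Signalling genes downstream of the receptors were grouped by function. As given above, 13% of all genes rose and 13.2% fell, and shares near these are no result about a group. RGS proteins, which switch off G protein signals, had 4 of 8 falling and none rising, with a median of -0.44. Rgs1 fell from 821 ± 333 to 454 ± 124 CPM (SD, n = 6), Rgs2 by 0.67, Rgs3 by 0.42 and Rgs18 by 2.42 on the log2 scale. Among receptor kinases and arrestins, which desensitise the receptors, 2 of 6 fell (Grk3 by 1.18 and Grk6 by 0.73), and none rose. Of 9 tested G protein subunits, Gng12 and Gng5 rose by 0.83 and 0.40 and Gnb4 fell by 1.45. Of 19 genes that link receptors to movement, such as the kinase Pik3cg and the exchange factor Dock2, 3 fell (Plcb2, Pik3r6 and Elmo1, by 0.34, 0.34 and 0.28) and none rose at this threshold, with a median of -0.06. At an unadjusted p under 0.05 in edgeR, 2 of the 19 were higher (Vav1 and Rac1, named after their values were seen).

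Markers of other cells give the setting for these changes. Monocyte markers had summed levels of 120.2 to 271 CPM in rhodamine-negative and 17.9 to 102 CPM in rhodamine-positive libraries. Of the 6 markers, 1 rose, 1 fell and 4 did not pass. Plac8 made up most of that sum in rhodamine-negative sorts, with means of 158 and 24.0 CPM, and fell by 2.83 beside Ccr2. F13a1 rose by 0.84. Ly6c2, the gated marker, did not pass (-1.25 ± 0.46, 0 to 154 counts), and neither did Chil3 (0.70 ± 0.34), Hp and Vcan. The part of monocyte markers in the change of Ccr2 was not tested. B and plasma cell markers had 2 of 5 lower (Jchain and Mzb1), and 0 of 4 plasmacytoid dendritic cell markers passed. Of 6 macrophage markers 4 rose (Csf1r, Cd68, Adgre1 and C1qa), beside 13% of all genes, and Mertk and Fcgr1 did not pass. Macrophage markers summed to 4703 to 9117 CPM in rhodamine-negative and 10321 to 11977 CPM in rhodamine-positive libraries, with no overlap. Glioma and oligodendrocyte lineage genes had 4 of 6 lower, with summed levels of 74.6 to 115 CPM in rhodamine-negative and 32.1 to 76.7 CPM in rhodamine-positive libraries. Of 5 tested endothelial and pericyte genes none passed in edgeR, 1 at an unadjusted p under 0.05.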

How the data were processed

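Per the labels' protocols, polyadenylated RNA was read on an Illumina HiSeq. The authors deposited raw counts per gene and a log2 normalized table of 10605 genes. The build was mm10 and the tools featureCounts 1.4.4, HISAT2 2.1.0, bcl2fastq 2.17, limma, edgeR and cutadapt, per the submitters' processing notes; roles, parameters and strand are not given in the sources used here. The 12 count files equalled the count table. From the counts, filterByExpr of edgeR 4.0.16 (R 4.3.3; minimum count 10) kept 15014 of 54532 genes with 99.8% of counts. The main test was edgeR's quasi-likelihood test with TMM scaling and the mouse as a block, with Benjamini-Hochberg adjustment over all genes tested, and the SE is the size of the log2 fold change over the root of its F statistic. CPM are TMM-scaled, and per-mouse log2 differences used a prior count of 2. The procedure was tested on simulated data. It recovered 29% of genes changed by 0.5 and 84% of those changed by 1 on the log2 scale, with 5 false calls among 118. Changes near 0.5 were thus often missed. Members and lists were chosen with earlier results of these data known. Every tested member may be named, untested ones with counts, and of partner lists up to 4 called genes with the smallest p. Positions, exon lengths and gene types are from GENCODE vM21 (all 70 members matched). Of the members tested, 1 receptor is counted but not reported here by name, and neither is the microglia marker list.

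The pairing comes from the series description. Deviations from group means correlated between both sorts of a mouse at r = 0.226, 0.207, 0.289, 0.0775, 0.302 and 0.45 for mice 1 to 6, across genes, which are not independent replicates. For mouse 4 this lay below the highest value with another mouse (0.187). No library was a copy of another (lowest chi-square per degree of freedom 17.5). Alternatives were a fit without the block, other scalings and filters, DESeq2 1.42.0, limma 3.58.1 (voom, and on the deposited log2 values), male mice alone, each mouse left out and a threshold of 0.01.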

Additional observations from a re-analysis of the deposited data

Results flagged for a closer look

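In 4 of 76 sets of 6 libraries (38 members in 2 sorts), the sample at one end stood apart from the others by more than Dixon's 95% critical value of 0.625. Chance gives about 1 in 20 such sets. Ccl25 in the rhodamine-negative library of mouse 5 was higher than in the others, at 8.16 CPM (125 counts) against 3.79 to 4.76 CPM. Cxcl9 in the rhodamine-negative library of mouse 6 was higher than in the others, at 45.5 CPM (762 counts) against 4.24 to 10.04 CPM. Ackr3 in the rhodamine-negative library of mouse 5 was lower than in the others, at 2.42 CPM (37 counts) against 8.14 to 13.4 CPM. Ccr2 in the rhodamine-positive library of mouse 1 was lower than in the others, at 9.82 CPM (147 counts) against 23.1 to 37.3 CPM.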

How the results depend on the processing

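Of the 18 members called, 11 kept direction and call under every alternative that tested them, apart from the threshold of 0.01, and none of the 18 changed direction. Without the mouse as a block, 0 ligands were higher and 5 lower, 9 receptors were lower, and 1 of the signalling partners and relatives higher and 6 lower, against 4 and 12 with it. Ligands called higher, 2 in the main test, were 1 with library size alone, DESeq2, the deposited log2 values, male mice alone or a threshold of 0.01, and 5 without a filter. A filter of 50 counts left 8 receptors, of which 5 fell. Partners called higher were 2 with library size alone, 1 in male mice alone and 2 at a threshold of 0.01, and those called lower 7 in male mice alone and 6 at that threshold. With 1 mouse left out, ligands higher were 1 to 3 and lower 6 to 8, receptors higher 0 to 1 and lower 8 to 9, and partners higher 3 to 4 and lower 7 to 11. The sex interaction of members gave 0 calls, but 6 without a filter. Signs reversed only among members that did not pass: in male mice alone for Ccl12 (-0.0088), Ccl7 (-0.11), Ccl24 (0.27), Cx3cr1 (-0.019) and Cxcr5 (0.21), for Ccl24 without mouse 5 or 6 (range with 1 mouse left out -0.15 to 0.13), for Cxcr5 without mouse 1 or 5 (range -0.42 to 0.15) and for Cxcl14 with library size alone (-0.039). The causes were not tested, except that a stricter filter tests fewer genes. Depth limits the 18 members with few counts, which were not tested, and widens the intervals of Cxcr3, Cxcr6, Cxcl1 and Ccl27a.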
